A study of Vulpes vulpes with 8 samples.

Results

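Frizzled receptors and secreted frizzled-related proteins were examined in gingiva of red foxes (Vulpes vulpes) with and without hereditary hyperplastic gingivitis (HHG), an inherited overgrowth of the gum. The 10 genes were FZD1, FZD3, FZD4, FZD5, FZD6, FZD7, FZD8, SFRP1, SFRP2 and SFRP4, and all probe sets that the array's annotation assigns to these symbols alone were taken. That gave 16 probe sets for 9 of the 10 genes, out of 42924 probe sets on the array besides its controls. FZD1 had 0 probe sets under its symbol in that annotation and was not analysed here. RNA from 1 piece of gingiva per fox was hybridised to an Affymetrix Canine 2 array, which carries dog probes, so fox transcripts were read through the sequence of a related species. The affected group held 5 foxes (males 19, 55 and 107, females 381 and 757, by the numbers in the labels) and the unaffected group held 3 (males 86 and 97, female 402). Affected foxes were diagnosed by eye from early signs, reddened and granular raised gum where it meets the tooth crown. The labels give no age, genotype or season for each fox, although some pieces came from euthanised animals in the pelting season and others from anaesthetised animals in spring.

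Frizzleds are membrane receptors that bind wnt ligands through a cysteine-rich domain outside the cell and pass the signal to Dishevelled inside it. With the co-receptors LRP5 and LRP6 they stabilise beta-catenin, which enters the nucleus and activates target genes, and with other partners they orient cells within an epithelium. Secreted frizzled-related proteins (SFRPs) carry a domain of the same kind without the membrane part, bind wnt ligands outside the cell and can keep them from the receptors. In oral mucosa and skin, wnt signals pass between epithelium and the fibroblasts under it, and SFRP2 and SFRP4 are known as products of connective tissue cells.

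The arrays were scaled by the authors to 1 common level, and the median signal ran from 28.7 to 33.8 over the 8 foxes. A probe set was taken as above background on an array where its signal exceeded that of 95% of 42 bacterial control probe sets on the same array, a cutoff between 7.42 and 16.6. The tissue label was checked against marker genes. All 10 fibroblast markers were above background in all 8 foxes. KRT13 and KRT76, keratins of oral epithelium, averaged 9153 and 11219 in affected foxes and 10489 and 10829 in unaffected foxes. KRT76 was lowest in unaffected fox 86, at 1029, and next lowest in affected fox 55, at 5621. Of the other keratins listed, KRT2 and KRT10 were above background in all 8 foxes and KRT1 in 3. Their levels differed widely between pieces. KRT10 ran from 44.4 in unaffected fox 86 to 5124 in affected fox 19. KRT1 and KRT2 read 1042 and 802 in fox 19 and at most 36.6 and 93.0 in any other fox. KRT4, KRT5, KRT14 and KRT15 had no annotated probe set. Of the skeletal muscle markers, ACTA1 and MYH7 were above background in 7 foxes each, TNNT3 and MB in 1 each and MYH2 in 0, with a list sum of 51.3 to 111 for affected foxes and 43.7 to 103 for the others. Of the salivary gland markers, AQP5 and MUC5B were above background in all 8, LPO in 6 and BPIFA2 in 0, with a sum of 185 to 232 and 141 to 241. A probe set annotated to EIF2S3, chosen after its values were seen, matched the sex labels, at 747 to 970.3 in the 5 males and 1.36 to 2.63 in the 3 females. Which transcript this probe set reads was not tested. The 5' actin control separated foxes 86, 97, 107 and 757 (7831 to 8868) from foxes 19, 55, 381 and 402 (1354 to 2336). Each set held affected and unaffected foxes, but fox 402 was the only unaffected fox of the set of low 5' actin. The tissue is a mixture, so fewer cells of a type and less RNA per cell cannot be told apart in any value below.

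**Figure D1:**
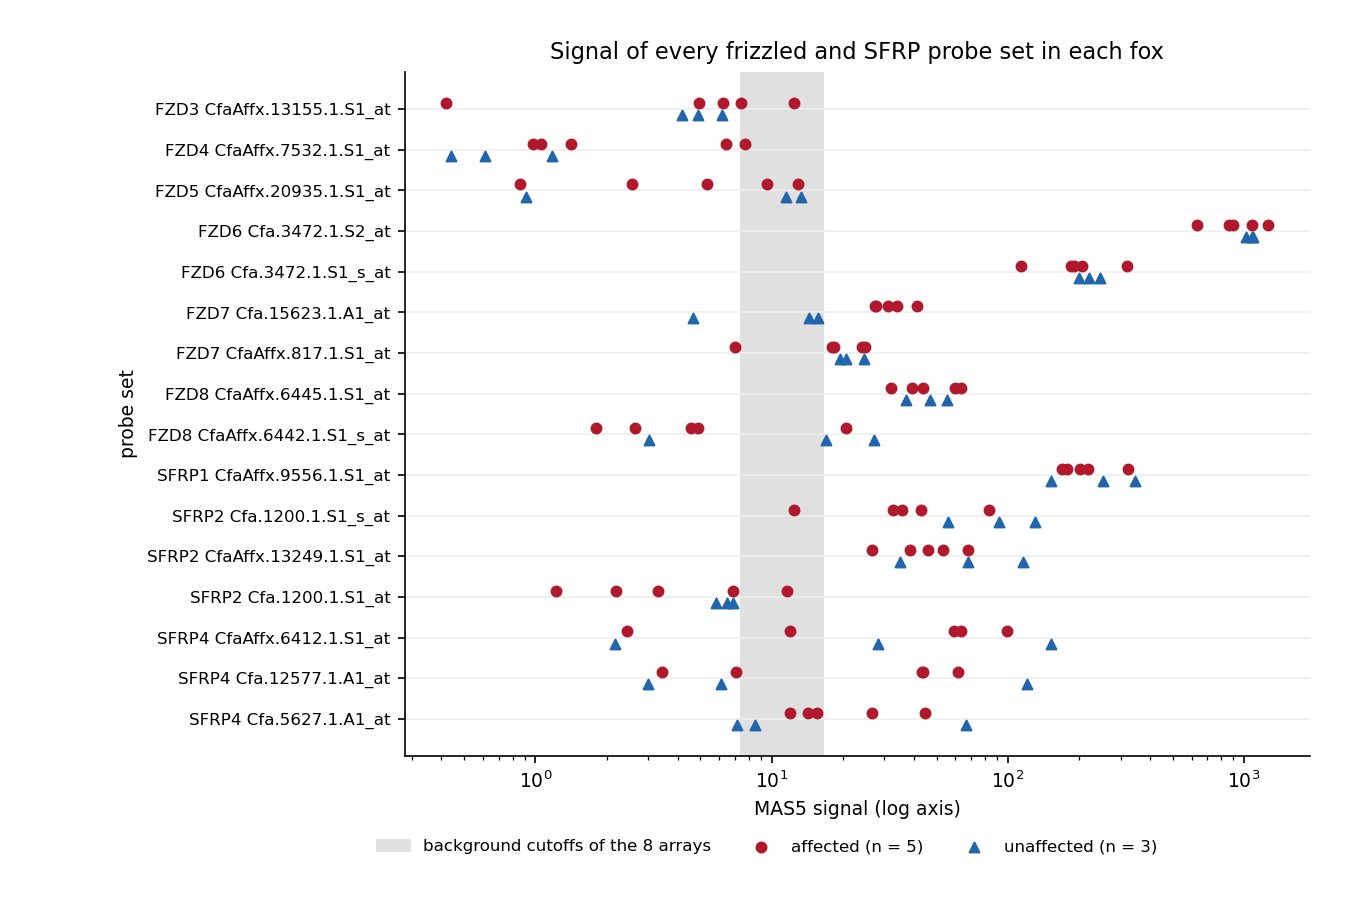
Each row is 1 of the 16 probe sets of the 9 genes with a probe set, each point 1 fox (circles affected, n = 5; triangles unaffected, n = 3), and the horizontal axis is the MAS5 signal on a log scale. The grey band spans the 8 background cutoffs, 7.42 to 16.6: FZD6 and SFRP1 lie to its right in all foxes, FZD3 and FZD4 exceed their own array's cutoff in none, and SFRP4 lies on both sides.

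FZD6, SFRP1, 1 probe set of FZD8 and 2 of SFRP2 were above background in all 8 foxes. FZD3, an axon guidance receptor, and FZD4, the receptor of norrin in blood vessels, read at most 12.4 and 7.75, above background in 0 foxes. FZD5, a receptor of gut and eye development, read from 0.86 to 13.3 and passed background only in unaffected fox 97. A signal at background says only that these dog probes did not detect the fox transcript at this level. Of the 16 probe sets, 11 passed the filter on dim signal (a mean over 18.2) and were tested, covering 6 genes. The other 5 were those of FZD3, FZD4 and FZD5, the second of FZD8 and the third of SFRP2.

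The first comparison asked whether members differ between affected and unaffected gingiva. Differences were computed on the log2(signal + 16) scale, where the offset shrinks those of dim probe sets. limma called 0 of the 11 tested probe sets at an adjusted p under 0.05 (adjusted p = 0.9999 for each), and it called 0% of all 25754 tested probe sets in either direction. An unadjusted p under 0.05 was seen for 2 of the 11, the first probe sets of FZD7 and SFRP2, where 2.69% of all tested probe sets had one (693). On this log2 scale affected means were higher in 4 of the 11 and lower in 7, with a median difference of -0.15. On the same scale 43.5% of all tested probe sets had a higher affected mean and their median was -0.037. The 5 frizzled probe sets had a median of -0.15 and the 6 SFRP probe sets a median of -0.078.

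**Figure D2:**
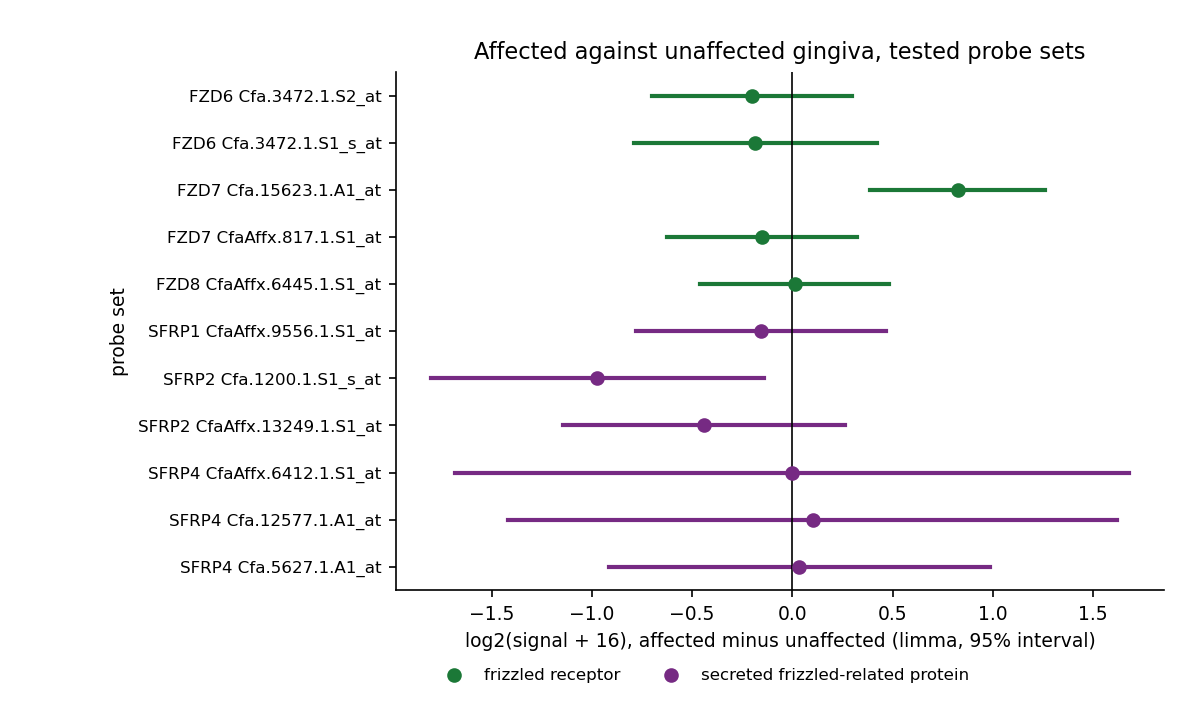
Points are the differences in log2(signal + 16), affected (n = 5) minus unaffected (n = 3), of the 11 tested probe sets, and lines are 95% intervals from limma. The intervals of the first FZD7 probe set (0.39 to 1.26) and of the first SFRP2 probe set (-1.80 to -0.14) lie on 1 side of 0, and those of SFRP4 are wide, the widest from -1.68 to 1.68.

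Among the receptors, FZD7 gave different readings from its 2 probe sets. FZD7 is a wnt receptor known from epithelial stem cells. Its first probe set, Cfa.15623.1.A1_at, read 27.3, 27.7, 31.1, 33.8 and 41.3 in affected foxes 19, 107, 381, 757 and 55. In unaffected foxes 86, 97 and 402 it read 4.65, 14.4 and 15.7. Each affected fox was above each unaffected fox, and fox 86 was at background. Groups did not overlap in this 1 of the 11 tested probe sets and in 2.43% of all tested, 0.916% with the affected foxes higher. The mean was 32.3 ± 5.72 (SD, n = 5) against 11.6 ± 6.03 (SD, n = 3), a difference of 0.82 ± 0.20 (SE) at an unadjusted p of 0.00180 and an adjusted p of 0.9999 in limma. The unaffected mean of 11.6 was under the filter's 18.2, so this probe set was tested only through its signal in affected foxes. The difference was 1.54 with an offset of 1 and 0.35 with an offset of 64, as the signal is of the size of the offset, and 0.63 to 0.94 with each fox left out in turn.

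The second FZD7 probe set, CfaAffx.817.1.S1_at, showed no such separation. It read 6.98, 17.97, 18.3, 24.3 and 24.7 in affected foxes 19, 757, 55, 107 and 381, and 19.5, 20.6 and 24.6 in unaffected foxes 97, 86 and 402. The groups overlapped, with affected fox 19 alone at background, and the difference was -0.15 ± 0.21 (SE). It was -0.012 without fox 19, and 0.036 and -0.35 within the sets of high and low 5' actin. In affected foxes the log2 ratio of the first to the second probe set was 0.51 ± 0.34 (SD, n = 5), and in unaffected foxes it was -0.47 ± 0.32 (SD, n = 3). That difference of 0.98 had a two-sided exact permutation p of 0.0179, the smallest that 56 arrangements of 5 and 3 foxes allow, and an adjusted p of 0.125 over the 7 pairs of probe sets compared in this way. It was 1.85 with an offset of 1 and 0.41 with an offset of 64, and 0.80 to 1.10 with each fox left out in turn. The ratio takes in 2 signals at background, the first probe set in fox 86 and the second in fox 19. It also carries the separation of the first probe set given above, so its test is no independent support for that separation. Over the 8 foxes the signals of both probe sets had a Pearson r of -0.177. Which of the 2 tracks the fox transcript was not tested.

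FZD6, which orients hair follicles and is needed for normal nails, was read clearly in all 8 foxes. Its first probe set, Cfa.3472.1.S2_at, read 632 in affected fox 55, 863 in 381, 897 in 19, 1084 in 107 and 1268 in 757. Unaffected foxes 402, 86 and 97 read 1017, 1084 and 1096. The unaffected foxes lay within the affected range. The mean was 949 ± 240.2 (SD, n = 5) against 1066 ± 42.9 (SD, n = 3), a difference of -0.20 ± 0.22 (SE) with a 95% interval of -0.70 to 0.30. The second probe set, Cfa.3472.1.S1_s_at, ran from 114 to 321 and differed by -0.18 ± 0.27 (SE). Without affected fox 55, the lowest in both, the differences were -0.067 and -0.011, and without affected fox 757, the highest in both, -0.31 and -0.36. Here both probe sets moved together, with a Pearson r of 0.913 over the 8 foxes.

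The first FZD6 probe set followed the actin control of the arrays. In the 4 foxes of high 5' actin the first probe set read 1084 to 1268, and in the 4 of low 5' actin 632 to 1017, with no overlap. Sorted by the 5' over 3' actin ratio, the foxes stood in the same order as by this probe set. Foxes 107, 86 and 97 were nearly tied in it, at 1083.9, 1084.1 and 1096.1. The share of all tested probe sets with this order was not computed. The second FZD6 probe set did not separate the sets, at 191 to 321 against 114 to 222. The ratio falls into 2 sets of 4 foxes, too few for a correlation within either. In the first probe set affected foxes differed from unaffected by 0.10 within the high set and by -0.36 within the low set. Fox 402 was the only unaffected fox of the low set. The difference was 0.0018 once the actin ratio was a covariate. For the second FZD6 probe set the differences within the high and low sets were 0.15 and -0.41. FZD8, a high-affinity wnt receptor, split alike in its first probe set, CfaAffx.6445.1.S1_at, at 47.1 to 63.2 against 32.1 to 43.9. These were 2 of the 11 tested probe sets, and 5.29% of all tested were higher in each fox of the first set than in each of the second. The part of RNA quality in these levels was not tested beyond this.

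**Figure D3:**
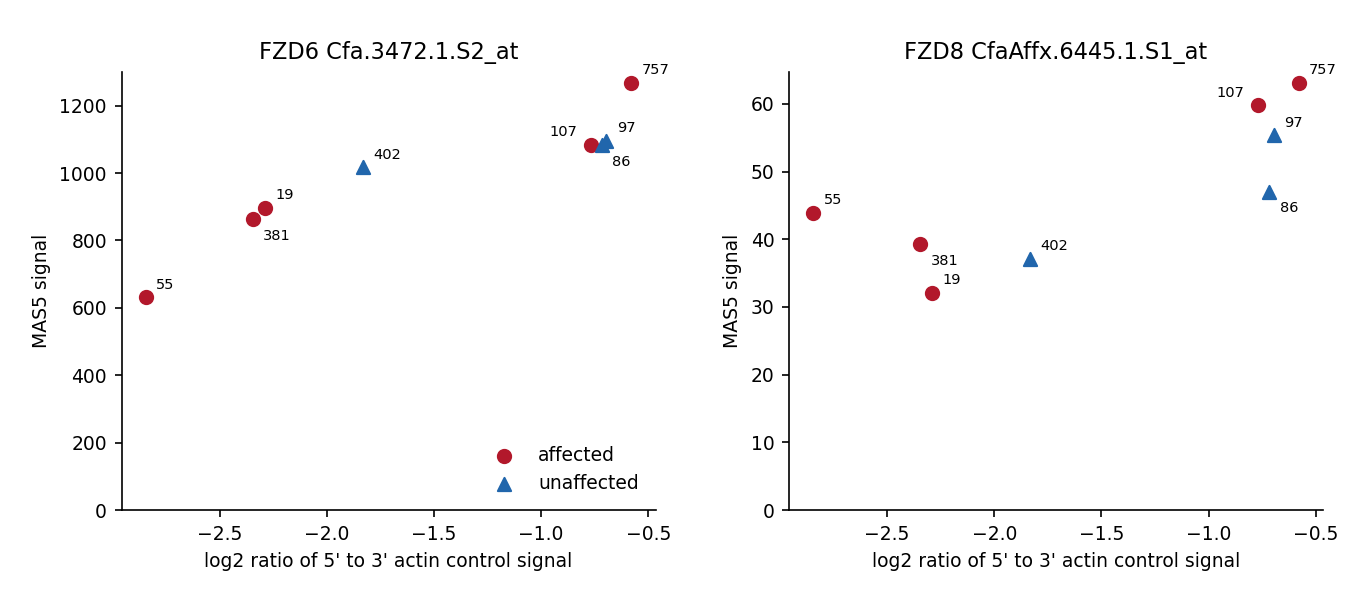
The signal of the first FZD6 and first FZD8 probe sets (vertical axes, linear from 0) is drawn against the log2 of 5' over 3' actin control signal, with each of the 8 foxes marked by its number. The 4 foxes with a ratio above -1, affected 107 and 757 and unaffected 86 and 97, lie above the other 4 in both panels.

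Between the groups FZD8 did not separate. Its first probe set read 32.1, 39.3, 43.9, 59.9 and 63.2 in affected foxes 19, 381, 55, 107 and 757 and 37.1, 47.1 and 55.4 in unaffected foxes 402, 86 and 97. The unaffected values lay inside the affected range, and the difference was 0.012 ± 0.21 (SE) with an interval of -0.46 to 0.48. Its second probe set, CfaAffx.6442.1.S1_s_at, was above background in affected fox 19 (20.6) and unaffected foxes 97 and 402 (16.9 and 27.1) only.

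Every tested SFRP probe set had a lower mean signal in affected foxes, although 2 of SFRP4 had a difference above 0 on the log2 scale. The differences largest in size were those of SFRP2. SFRP2 is made by fibroblasts of skin and mucosa. Its first probe set, Cfa.1200.1.S1_s_at, read 12.4, 32.7, 35.7, 42.8 and 83.6 in affected foxes 381, 757, 19, 55 and 107. Unaffected foxes 97, 402 and 86 read 55.6, 91.6 and 130.1. Only affected fox 107 lay above an unaffected fox. The mean was 41.4 ± 26.1 (SD, n = 5) against 92.4 ± 37.2 (SD, n = 3), a difference of -0.97 ± 0.37 (SE) at an unadjusted p of 0.0261 and an adjusted p of 0.9999 in limma. With each fox left out in turn it ran from -1.24 to -0.73. It was -0.55 within the set of high 5' actin and -1.28 within the other, where fox 402 was the only unaffected fox.

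The second SFRP2 probe set, CfaAffx.13249.1.S1_at, had the same sign and a smaller difference. It read 26.5, 38.6, 46.0, 53.0 and 67.9 in affected foxes 19, 55, 381, 757 and 107, and 35.0, 68.0 and 115.6 in unaffected foxes 97, 402 and 86. The groups overlapped more here, since fox 97 lay below all but fox 19 of the affected. The difference was -0.44 ± 0.32 (SE), with an interval of -1.14 to 0.26, and -0.10 without unaffected fox 86, which had the highest SFRP2 in both probe sets, and -0.79 without unaffected fox 97, the lowest unaffected fox in both. The log2 ratio of the first to the second differed by -0.53 between the groups (two-sided exact permutation p = 0.179, adjusted p = 0.626 over 7 pairs). The third probe set, Cfa.1200.1.S1_at, was above background in affected fox 381 (11.6) only.

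SFRP4, whose loss causes a bone disorder in people, varied widely between foxes of the same group. Its first probe set, CfaAffx.6412.1.S1_at, read 63.2, 98.7 and 59.2 in affected foxes 19, 107 and 381, and 11.9 and 2.45 in affected foxes 55 and 757. Unaffected fox 86 read 151.9, fox 97 28.1 and fox 402 2.17. Each group thus held foxes with a clear signal and foxes at background. The means were 47.1 ± 39.7 (SD, n = 5) and 60.7 ± 80.0 (SD, n = 3), a difference of -0.0012 ± 0.75 (SE). The other probe sets, Cfa.12577.1.A1_at and Cfa.5627.1.A1_at, ran from 3.01 to 120.8 and from 7.11 to 66.7 and differed by 0.10 ± 0.68 (SE) and 0.036 ± 0.43 (SE). Foxes 19, 86, 107 and 381 were above background in all 3 probe sets, and fox 97 in the first only.

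The SFRP4 probe sets varied together from fox to fox, with Pearson r of 0.960, 0.867 and 0.923 for the 3 pairs (n = 8 foxes, whose arrays they share). Their SD over the 8 foxes on the log2 scale was 1.21, 1.09 and 0.65, larger than in 99.2%, 98.8% and 92.4% of all tested probe sets, whose median was 0.32. For the first probe set of FZD6 the SD was 0.30 and for the first of FZD8 0.26. Without unaffected fox 86 the 3 SFRP4 differences were 0.85, 1.01 and 0.63, and without unaffected fox 402 they were -0.75, -0.41 and -0.28, so their sign changed with 1 fox. Their sign also differed between the actin sets. Within the set of high 5' actin the differences were -0.90, -0.51 and -0.13, and within the set of low 5' actin 1.60, 1.19 and 0.57. The values within the low set rest on 1 unaffected fox, 402, which was at background in all 3 SFRP4 probe sets.

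**Figure D4:**
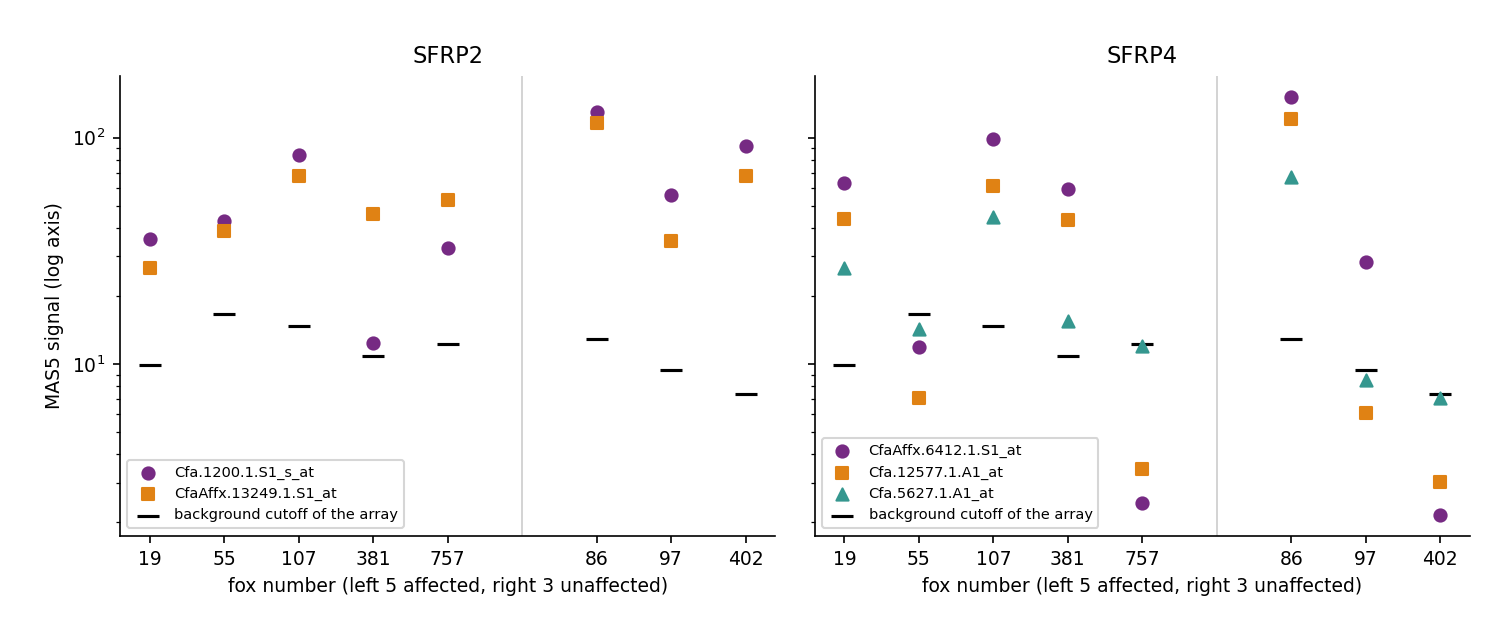
MAS5 signal (log axis) of the 2 tested SFRP2 probe sets (left) and the 3 SFRP4 probe sets (right) in each fox, the 5 affected foxes left of the grey line and the 3 unaffected right of it. Short black bars mark each array's background cutoff: SFRP4 is above it in all 3 probe sets in foxes 19, 107, 381 and 86, while SFRP2 is highest in fox 86.

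SFRP1, a wnt antagonist of epithelium and stroma, was bright in all foxes. Its only probe set, CfaAffx.9556.1.S1_at, read 168.8, 178.2, 201.4, 219.0 and 322.0 in affected foxes 757, 55, 107, 381 and 19. In unaffected foxes 86, 402 and 97 it read 152.7, 253.4 and 345.7. The 3 unaffected foxes spanned the whole affected range. The mean was 218 ± 61.4 (SD, n = 5) against 251 ± 96.5 (SD, n = 3), a difference of -0.16 ± 0.28 (SE), or 0.098 without unaffected fox 97.

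Tissue composition was set beside these levels, because a piece of gum can hold more epithelium or more connective tissue. A list score was the mean of the markers' log2 values, each centred over the foxes, and 33 relations were computed (11 probe sets with the fibroblast, basal epithelium and cornified layer scores). SFRP1 and the cornified score had a Pearson r of 0.761 (exact permutation p = 0.0283) and a Spearman rho of 0.738 (exact permutation p = 0.0458) over 8 foxes, and an r of 0.528 without foxes 86 and 757. For the third SFRP4 probe set and the fibroblast score r was 0.751 (exact permutation p = 0.0328) and rho 0.786 (exact permutation p = 0.0279), and r was 0.437 without foxes 86 and 402. The adjusted p was 0.458 for both, as for the smallest of the 33, and within the sets of high and low 5' actin there were too few foxes (4 each). The summed signal of the 10 fibroblast markers ran from 10368 to 27906 in affected and from 8485 to 31356 in unaffected foxes. That of the 8 cornified layer markers ran from 13160 to 18874 and from 5247 to 18718. With the fibroblast and the cornified score as a covariate the first SFRP2 probe set differed by -1.003 and -0.87 and the first FZD7 probe set by 0.85 and 0.78.

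The second label of each fox is its sex. With a term for disease status, limma called 0 of the 11 tested probe sets between females and males (adjusted p = 0.9999 for each), and 0% of all tested higher and 0.00388% lower in females, which is the EIF2S3 probe set named above. An unadjusted p under 0.05 was seen in 0 of the 11 and in 2.29% of all tested. The SFRP4 probe sets had the 3 largest differences in size, at -1.29 ± 0.67, -0.86 ± 0.67 and -0.68 ± 0.39 (SE, female minus male), since of the females only fox 381 was above background in all 3. The interaction of disease and sex was called in 0 of the 11 and had an unadjusted p under 0.05 in 0 of them, against 0% called and 2.47% with an unadjusted p under 0.05 over all tested. Only 1 unaffected fox was female.

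The other genes of the pathway were taken from lists by role. They held 100 symbols, of which 95 were annotated and 61 tested, by the brightest probe set of each. limma called 0 of the 61 in either direction. Affected means were higher in 25 and lower in 36, with a median difference of -0.053, 2 had an unadjusted p under 0.05, and the groups overlapped in all 61. Over all tested probe sets 43.5% had a higher affected mean, 2.69% an unadjusted p under 0.05 and 2.43% no overlap. The lists follow in the order of the pathway.

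Among other proteins with a frizzled-type domain, 3 of 5 tested had higher affected means (median 0.43). FZD2, a close relative of FZD7, read 394 ± 148 (SD, n = 5) against 326 ± 219 (SD, n = 3), and SMO, the Hedgehog signal transducer, differed by 0.49 ± 0.28 (SE). FZD10 and SFRP5 differed by -0.26 and -0.065. Most ligands were dim: of 18 annotated, 9 were above background in 0 foxes and 5 were tested. WNT5B, which acts without beta-catenin in many settings, read 91.8 ± 11.4 against 69.0 ± 15.95, a difference of 0.35 ± 0.18 (SE), and WNT3 differed by 0.075. WNT7B and WNT10A, both ligands of epithelium, differed by -0.43 and -0.31. The affected mean of WNT7B, 16.6, was under the filter's 18.2, so it was tested only through its signal in unaffected foxes. In secretion, PORCN, which acylates wnt proteins, differed by 0.40 ± 0.21 (SE) and its second probe set by 0.011, and WLS, their carrier, by -0.0030, with its other tested probe sets at -0.52 to -0.11.

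Of 9 co-receptors tested, 5 had higher affected means (median 0.11). GPC3, a cell surface proteoglycan, and RYK, a wnt-binding receptor, differed by 0.46 ± 0.22 and 0.25 ± 0.20 (SE), while their other probe sets differed by 0.040 and by -0.013 to 0.081. ROR2 and ROR1, receptors of WNT5A, differed by -0.70 ± 0.33 and -0.46 ± 0.30 (SE), with ROR2 above background in 5 of the 8 foxes. The affected mean of ROR2, 14.1, was under the filter's 18.2, so it was tested only through its signal in unaffected foxes. Of R-spondins and receptor turnover 4 were tested. LGR6 and ZNRF3 differed by 0.26 and 0.086 and LGR4 and RNF43 by -0.20 and -0.029. RSPO1, RSPO3 and LGR5 were above background in 0 foxes.

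Of the other secreted or surface inhibitors, 5 of 6 tested had lower affected means (median -0.20). DKK3, a secreted protein of the Dickkopf family, read 405 ± 129 (SD, n = 5) against 610 ± 69.2 (SD, n = 3), a difference of -0.62 ± 0.26 (SE) at an unadjusted p of 0.0380 and an adjusted p of 0.9999 in limma. Its second probe set differed by -0.082. KREMEN1, a Dickkopf receptor, differed by -0.22 and NOTUM, which inactivates wnt proteins, by 0.0030. Inside the cell, 5 of the 10 tested genes of the dishevelled and destruction complex list were higher (median 0.012), with GSK3B and DVL3 at 0.40 and 0.49 and DVL2 and AXIN1 at -0.21 and -0.18.

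At the nuclear end, beta-catenin itself (CTNNB1) and its partners had higher affected means in 1 of 10 tested and lower in 9 (median -0.22), where 43.5% of all tested probe sets were higher. The 9 include LEF1, whose affected mean of 15.6 was under the filter's 18.2. LEF1 was thus tested only through its signal in unaffected foxes. PYGO1, a co-activator of beta-catenin, read 150.04 ± 51.2 (SD, n = 5) against 257 ± 95.6 (SD, n = 3), a difference of -0.73 ± 0.32 (SE) at an unadjusted p of 0.0481 and an adjusted p of 0.9999 in limma, and its second probe set differed by -0.80. TLE3, a co-repressor, differed by -0.50 ± 0.31 (SE) and TLE1 by 0.14, with its second probe set at -0.10. TCF7L2, a DNA-binding partner of beta-catenin, was named outside the rule for these lists, as were LEF1 and BCL9L. Another TCF7L2 probe set had the opposite sign to its brightest (0.25 against -0.25). BCL9L differed by -0.056 in its brightest probe set and by -0.10 to 0.15 in its other tested ones. Of the 5 target genes tested 2 were higher (median -0.12): CD44 and MYC differed by -0.61 ± 0.34 and -0.45 ± 0.35 (SE), and NKD1 and CCND1 by 0.24 and 0.052. AXIN2, a feedback inhibitor read widely as a target of beta-catenin, was named outside the rule for these lists, with its values in view. It differed by -0.12 ± 0.21 (SE) in its brightest probe set and by -0.38 to -0.25 in its other tested ones. Of 5 planar polarity genes tested 3 were higher (median 0.20), with DAAM1 and PRICKLE1 at 0.39 and 0.21 and CELSR1 and CELSR2 at -0.28 and -0.087.

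**Figure D5:**
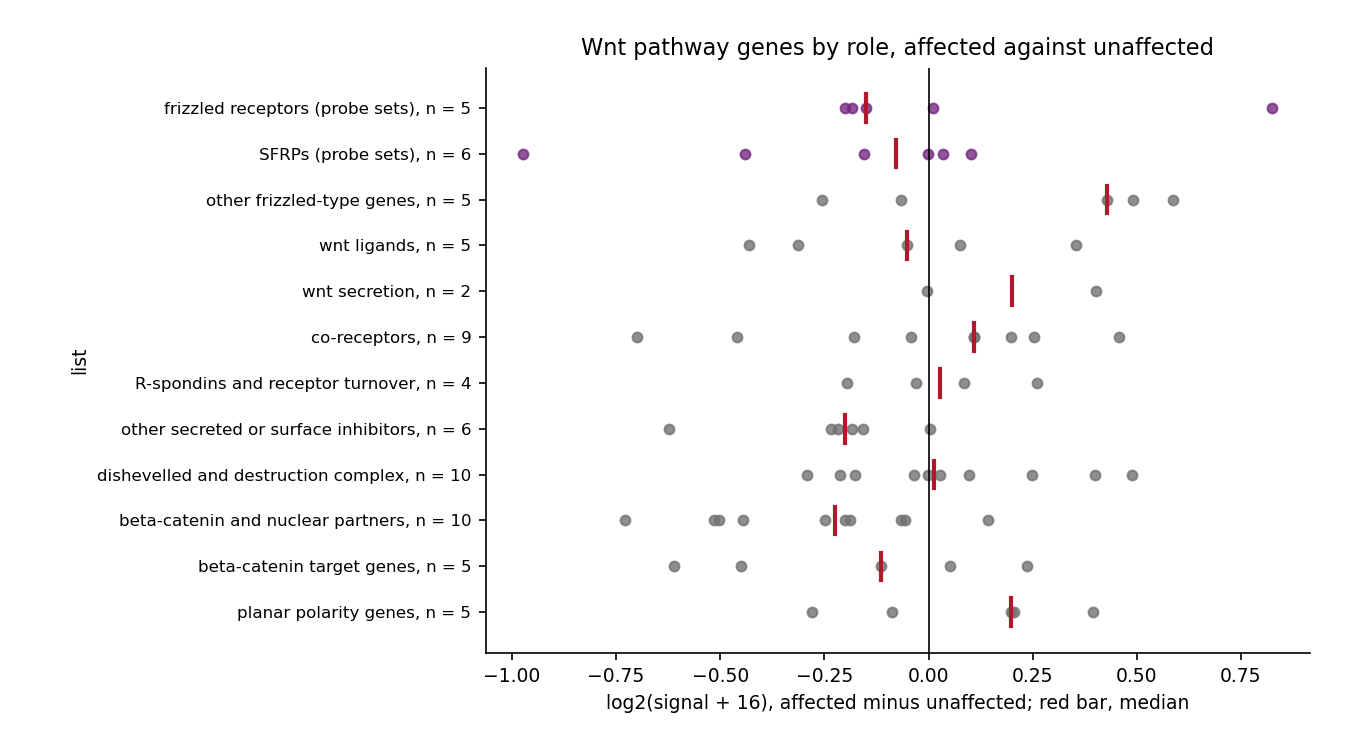
Each point is the difference in log2(signal + 16), affected (n = 5) minus unaffected (n = 3), of 1 tested probe set (top 2 rows, 5 frizzled and 6 SFRP probe sets) or of the brightest probe set of 1 gene (other rows), and red bars are medians. The lists spread to both sides of 0, with medians from -0.22 (beta-catenin and its partners) to 0.43 (other frizzled-type genes).

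Genes whose level over the 8 foxes was most like that of a member were sought among 10514 genes, by Pearson r. For the first FZD6 probe set these were BCL10, ACAP2 and AP3M1 (r = 0.983, 0.977 and 0.976). All 3 split by 5' actin as FZD6 did, BCL10 at 564 to 793 in the foxes of the high set and 254 to 515 in those of the low set, and 124 of the genes had an r over 0.9 with FZD6. For SFRP1 they were NAA15, DACT2 and SLC2A11 (r = 0.982, 0.981 and 0.973). DACT2, which binds Dishevelled, read 71.4 and 68.0 in foxes 97 and 19, the foxes of highest SFRP1, and 16.2 and 19.3 in foxes 86 and 757, those of lowest. For the first FZD7 probe set they were ABTB1, S100A14 and BACH1 (r = 0.949, 0.948 and 0.941), of which S100A14, a calcium-binding protein of epithelium, ran from 5289 to 11240. All values come from the same 8 arrays, and the highest of many r values are high by selection.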

How the data were processed

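Gingival RNA of 8 foxes was read on 1 array each. The values the authors deposited are MAS5 signals, per the submitters' processing notes: 1 intensity for each probe set on an array, on a linear scale. Its version and settings were not given in the labels. The 2% trimmed mean was 150.0 on every array. Probe sets were named from the platform annotation, by a single symbol only. Controls (111) and the dimmest 40% of the rest, by mean over foxes, were left out. Groups were compared on log2(signal + 16) with limma 3.58.1 in R 4.3.3 (lmFit, eBayes, Benjamini-Hochberg over 25754 probe sets, threshold 0.05). On simulated data of 8 arrays it recovered 29.9%, 80.6% and 93.3% of added log2 changes of 1, 2 and 3. The simulated noise was normal and independent between probe sets, so variation that probe sets share on these arrays was not part of it. The member differences of the main fit were all under 1 in size. Nothing in the labels speaks of more than 1 piece per fox, so p-values measure the spread between foxes; 8 arrays limit the precision. Background was to be set from all bacterial and phage probe sets, but those spiked into the hybridisation were left out after their signal was seen. Pairs of probe sets were compared by exact permutation.

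Members and lists were chosen with earlier results of these data known. Rule for named genes: all member probe sets, per pathway list up to 2 genes per direction with the smallest p, and the 3 genes most alike to the brightest FZD, SFRP and FZD7 probe sets. Alternatives were the offset, normalization, filter, covariates, males only, array weights, prior variance, 1 probe set per gene, the threshold and each fox left out.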

Additional observations from a re-analysis of the deposited data

How the results depend on the processing

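No paired analysis was possible because the fox numbers differ between the groups. limma called 0 probe sets between affected and unaffected in each of the 16 alternatives and with each fox left out. Unadjusted p under 0.05 were 693, with 297 to 1490 over alternatives and 477 to 1243 without 1 fox. Between sexes, 0 to 1 were called higher without 1 fox. The disease by sex fit without unaffected fox 402 could not be fitted. The first probe sets of FZD7 and SFRP2 kept their sign in each alternative that gave a value (0.35 to 1.54 and -1.29 to -0.55). With the dimmest 60% of probe sets left out, only FZD6, SFRP1 and the first SFRP2 probe set were still tested. The cause of changes of sign was not tested.

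The first SFRP4 probe set (-0.0012) was 0.21 with an offset of 1, 0.021 and 0.044 with quantile and cyclic loess normalization, 0.085, 0.19, 0.20 and 0.078 with sex, the actin ratio, the basal epithelium and the cornified score as covariates, 0.53 with array weights, and -0.90 and 1.60 within the foxes with high and with low 5' actin. The other 2 SFRP4 probe sets were -0.038 and -0.031 with an offset of 64, -0.013 and -0.040 with the fibroblast score and -0.22 and -0.076 in males. FZD6 was 0.0018 and 0.026 with the actin ratio, and 0.10 and 0.15 within the foxes with high 5' actin. The second FZD7 probe set was 0.036 within the foxes with high 5' actin. FZD8 was -0.0080 with the fibroblast score and -0.15 in males. The interaction of the second FZD7 probe set was -0.035 with quantile normalization, and the ratio of those other 2 SFRP4 probe sets -0.0070 with an offset of 64.

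Without 1 fox, differences ran from -0.10 to 0.11 for FZD8, -0.45 to 0.098 for SFRP1 and -0.75 to 0.85, -0.41 to 1.01 and -0.28 to 0.63 for SFRP4. Sex differences ran from -0.036 to 0.29 for FZD6, -0.22 to 0.14 for FZD8, -0.28 to 0.062 for SFRP1 and -0.067 to 0.34 for the second SFRP2 probe set. Interactions ran from -0.17 to 0.24 for the second FZD7 probe set, -0.89 to 0.21 for SFRP1, -0.55 to 0.82 for the second SFRP2 probe set, and -0.26 to 2.37 and -0.44 to 1.32 for the same 2 of SFRP4. Log2 ratios of probe sets differed by -0.078 to 0.064 for FZD6 and by -0.34 to 0.19, -0.46 to 0.23 and -0.12 to 0.38 for the SFRP4 pairs.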

Other observations

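SOST, sclerostin, an inhibitor that binds LRP5 and LRP6, was left out of the test by its dim signal. It was chosen with its values in view. SOST read 12.5, 12.9 and 14.1 in unaffected foxes 402, 97 and 86, above background in each, and 1.46 to 3.996 in the 5 affected foxes, above background in 0. Of the 34 pathway genes left out by the filter it was the 1 with this pattern. Among the 17170 probe sets left out, 80 (0.466%) showed it, and 4 (0.0233%) were above background in each affected and in no unaffected fox. Fitted without the filter, SOST differed by -0.61 ± 0.12 (SE) at an unadjusted p of 0.000710 and an adjusted p of 0.9999 in limma. As SOST was picked by its values, this fit is no support for a difference. RSPO3, also left out by the filter, was higher in each affected than in each unaffected fox, but above background in 0 foxes. The background cutoffs were 9.88 to 16.6 on affected and 7.42 to 12.95 on unaffected arrays.

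FRZB, a secreted frizzled-type protein of connective tissue also chosen after its values were seen, ran from 229 in unaffected fox 402 to 1603 in affected fox 107. Affected foxes 19, 55, 381 and 757 read 291, 338, 735 and 1006, and unaffected foxes 97 and 86 read 246 and 1363. Foxes 86 and 107 thus were the highest for FRZB and for all 3 SFRP4 probe sets, while fox 757 was high for FRZB and at background for SFRP4. The FRZB difference between the groups was 0.59 ± 0.68 (SE).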
